A study of Homo sapiens with 9 samples.

Results

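Kinesins, centromere proteins and kinetochore proteins are the machinery that builds the spindle and hands 1 copy of each chromosome to each daughter cell. Their transcripts were followed in WI-38 cells, a line of normal human lung fibroblasts with a limited lifespan, after the DNA-damaging drug doxorubicin. The genes were taken by symbol from a table of 6499 genes, by names that begin with KIF, KIFC, CENP, BUB, MAD1L, MAD2L, NDC80, NUF2, SPC24, SPC25, SKA, ZWI, KNL1, KNTC1, MIS1, DSN1, PMF1, SGO, INCENP, CDCA, TTK, SPAG5 or KNSTRN. This gave 74 genes, of which 25 are kinesins. By role they are 13 mitotic kinesins (CENPE among them), 9 transport kinesins, 3 other kinesins, 16 genes of centromere chromatin and the inner kinetochore, 15 of the outer kinetochore, 6 of the spindle checkpoint, 5 of centromeric cohesion and the chromosomal passenger complex, 5 other CDCA genes and 2 that match by name only.

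All libraries came from WI-38 cells at population doubling 30. The 3 control libraries were made from cells given DMSO in both steps, and the 3 doxorubicin libraries from cells exposed to doxorubicin (1 μM) over 12 h and then kept with DMSO alone during the following 48 h. The other 3 libraries of the series, with oridonin in the second step, were not analysed here. The labels do not say whether libraries of a group came from separate cultures, so each p measures only the spread between these libraries. The table was taken to hold only genes that had passed the authors' own thresholds. This was not checked, and 1645 of the 5721 genes tested were not called here. The tests given here are thus read as the size and spread of changes already selected and as no second test.

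A kinesin is a motor that walks along or takes apart microtubules. Mitotic kinesins slide, bundle or shorten the microtubules of the spindle, while transport kinesins carry vesicles and organelles along microtubules. The centromere is marked by nucleosomes with the histone CENPA, on which the inner kinetochore assembles, and the outer kinetochore grips the microtubules. The spindle checkpoint delays anaphase until every kinetochore is attached. In dividing cells most of these transcripts peak late in the cell cycle, and many of their promoters carry a short element called CHR (cell cycle genes homology region), often downstream of CCAAT boxes.

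Promoter sequence is shown first, to set the mitotic and centromere genes beside the transport kinesins. RefSeq promoters (GRCh38.p14, 250 bases before to 50 after the start of transcription, the first start given per gene) matched 60 of the 74 members by symbol. CHR was searched as TTTGAA or TTCGAA and CCAAT as CCAAT, each on both strands, so a reverse match reads TTCAAA or ATTGG. The next windows are the 120 bases just before the start of KIF20A, the mitotic kinesin with the largest fitted fall on the log2(TPM + 1) scale, of KIF4A, and of KIF13A, a transport kinesin, with matches to either motif in capitals.
KIF20A (chr5:138178992-138179111, plus strand): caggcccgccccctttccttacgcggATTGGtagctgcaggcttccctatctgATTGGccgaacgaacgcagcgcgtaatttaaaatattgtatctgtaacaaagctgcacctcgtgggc
KIF4A (chrX:70289984-70290103, plus strand): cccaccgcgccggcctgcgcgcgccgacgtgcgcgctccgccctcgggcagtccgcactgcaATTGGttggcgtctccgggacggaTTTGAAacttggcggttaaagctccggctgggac
KIF13A (chr6:17987636-17987755, minus strand): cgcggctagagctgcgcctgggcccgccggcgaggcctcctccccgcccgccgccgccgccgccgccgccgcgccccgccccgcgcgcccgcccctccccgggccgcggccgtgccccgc

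The windows that follow are 30 bases around a CHR match in mitotic kinesins, in 3 of the 4 genes of the NDC80 complex, in the checkpoint genes BUB1 and MAD2L1 and in CDCA8 and CDCA3, all of which fell by over 2-fold. Capitals mark CHR and CCAAT matches. In CDCA8 the CHR and a reversed CCAAT share 1 base, and NDC80 holds 2 CHR matches side by side.
KIF11 (chr10:92593090-92593119, plus strand): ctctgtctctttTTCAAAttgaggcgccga
KIF18B (chr17:44947754-44947783, minus strand): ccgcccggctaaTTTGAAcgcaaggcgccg
KIF23 (chr15:69414282-69414311, plus strand): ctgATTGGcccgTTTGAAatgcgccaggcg
KIFC1 (chr6:33391815-33391844, plus strand): tggccgttggaaTTCAAAagtggcgggtgt
NDC80 (chr18:2571542-2571571, plus strand): ccggcggagaatTTCAAATTCGAAcggctt
NUF2 (chr1:163321958-163321987, plus strand): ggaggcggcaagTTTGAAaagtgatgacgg
SPC25 (chr2:168890416-168890445, minus strand): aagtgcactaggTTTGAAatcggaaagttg
BUB1 (chr2:110678045-110678074, minus strand): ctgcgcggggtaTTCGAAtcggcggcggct
MAD2L1 (chr4:120066807-120066836, minus strand): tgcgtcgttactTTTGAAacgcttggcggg
CDCA8 (chr1:37692481-37692510, plus strand): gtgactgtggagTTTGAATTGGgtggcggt
CDCA3 (chr12:6851272-6851301, minus strand): cgtggcgggaagTTTGAAactggtaacttc

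Of the 51 members with a promoter that are not transport or other kinesins, 32 (62.7%) held a CHR and 32 (62.7%) a CCAAT. In all 27305 promoters of the reference the shares were 16.6% and 35.7%, and in the 4790 listed genes that are not members 11.5% and 37.0%. Mitotic kinesins held a CHR in 10 of 13 promoters (76.9%) and both motifs in 9 (69.2%), against 6.58% of all promoters for both. The 9 promoters of transport and other kinesins held a CHR in 2 (KIF5B and KIF24, 22.2%) and a CCAAT in 3 (33.3%). Thus CHR was more common than in the reference among the mitotic and centromere members, while the transport and other kinesins were few. In the 250 bases before the start alone, the share was 29.4% of the 51, 14.6% of all promoters and 10.1% of the other listed genes. No test was made of these shares.

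The CHR matches of the mitotic and centromere members lay at the start of transcription. Of their 35 matches, 32 began between 60 bases before and 50 after it, and the median position was 3 bases before it. In the 23 promoters with both motifs, the nearest CHR lay downstream of the nearest CCAAT in 21, at a median distance of 35 bases. The share with a CHR was 74.3% among the 35 members with a promoter that were called lower by over 2-fold, 37.5% among the other 16 of these 51, and 28.2% among the 238 other listed genes called lower by over 2-fold. In the 250 bases before the start alone these shares were closer, at 31.4%, 25.0% and 23.9%. The 16 include genes that were not tested. Of these, KIF14 and SGO1, at 2.92% and 0.847% of control, held a CHR, and CENPP, at 32.0%, did not. Among the tested genes of the 16, KIF18A, with a CHR, and CENPQ, CDCA7L and ZWILCH, without one, kept 37.6% to 49.5%. They were not called by over 2-fold on the log2(TPM + 1) scale. An E2F site, searched as TTTCGCGC or TTTGGCGC, was found in 2 of the 51 promoters (3.92%, KIF15 and CENPU), in 1.18% of all promoters, in 2.34% of the other listed genes and in 8.40% of the 238 other genes called lower by over 2-fold. A match is a run of letters and does not show that a factor binds there. KIF20A, KIF2C and CENPE held no CHR in this window.

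**Figure D1:**
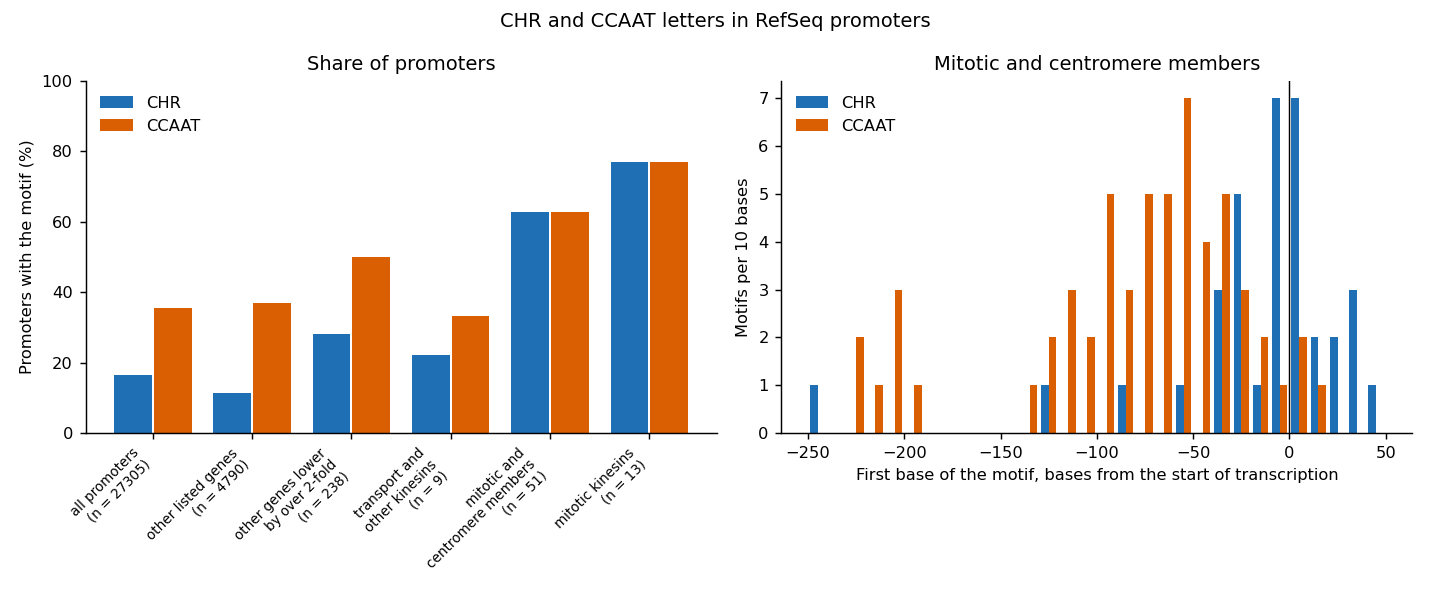
Left, the percent of RefSeq promoters that hold a CHR (blue) or CCAAT (orange) in 6 sets of genes, with the number of promoters under each set. Right, counts of motifs per 10 bases by the distance of their first base from the start of transcription in the mitotic and centromere members. CHR matches cluster at the start and CCAAT matches before it.

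Marker genes were looked up in the 6 libraries first. Of 11 fibroblast markers 5 are in the table, and all 5 were above 26 TPM in each library, such as the collagen gene COL1A1 at 2780 to 2913 TPM in control libraries and 1734 to 2201 TPM after doxorubicin. COL1A1, COL1A2, COL3A1 and PDGFRB were called lower, COL3A1 most, from a mean of 267 to 95.4 TPM, and FN1 was called higher, from 4524 to 6220 TPM. None of the 4 endothelial markers checked is in the table, but absence from a table of selected genes does not show a level. The leukocyte marker PTPRC was at most 0.62 TPM. Of the other markers, the macrophage-associated gene CD68 went from a mean of 47.2 to 91.3 TPM and the keratin gene KRT19 from 107 to 246 TPM, and their part in the results was not tested. MKI67, a marker of proliferating cells, went from 7.02 to 9.11 TPM in controls to 0.01 to 0.11 TPM. Fewer dividing cells and less RNA per cell cannot be told apart in bulk RNA. The values of the listed genes summed to 543228 to 599670 TPM per library, and the read depth is unknown.

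Nearly all of the spindle and kinetochore transcripts fell. On the log2(TPM + 1) scale, 68 of the 74 members averaged 1 TPM or more across all 6 libraries and were tested. Called means an adjusted p under 0.05 with a fold over 1.2 on that scale, which understates changes of low genes. Of these 68, 63 were called lower, 2 higher (MAD1L1 and PMF1-BGLAP) and 3 neither (CENPT, KIF17 and KIFC2), against 48.5% lower and 22.7% higher among all 5721 genes tested. A fall of over 2-fold was called in 41 members, against 6.28% of all genes tested. Control and doxorubicin libraries did not overlap in 61 of the 68 with doxorubicin lower and in 3 with it higher, against 48.4% and 32.3% of all genes tested. The counts of lower calls and of non-overlap have to be read against that high background, and the count of falls over 2-fold stood much farther above its own.

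The 68 had a median of -1.51 in log2 fold change, and that of all genes tested was -0.28, so members lay 1.23 below the listed genes on this scale (median relative value -1.23). When libraries were median-centred or quantile-normalized, the median of all genes moved to -0.02 and -0.01. The lower share of all calls then went from 68.1% to 40.1% and 46.5%. Of the members called lower, 58 kept that call under centring and 57 under quantile normalization. With 3 libraries a group, an exact two-sided permutation test of a single gene cannot give a p below 0.1.

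The summed level of all 74 members was 880 ± 57.4 TPM (SD, n = 3) in control libraries and 382 ± 22.8 TPM (SD, n = 3) after doxorubicin, or 43.4% of control. In 26 of the 74 the control mean was at least 1 TPM and the doxorubicin mean below it, against 309 of all 6499 listed genes. Of those 26, 24 passed the low-value filter, which the control values alone could carry. The 6 untested members are KIF14, SGO1, CENPP, KIF24, KIF26B and KIF1A. Control library 2 held the highest control value in 40 of the 63 members called lower (63.5%), against 45.6% of all genes tested. Without it 61 of the 63 stayed called lower, and the calls of CENPJ, KNTC1, MAD1L1 and PMF1-BGLAP were lost.

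**Figure D2:**
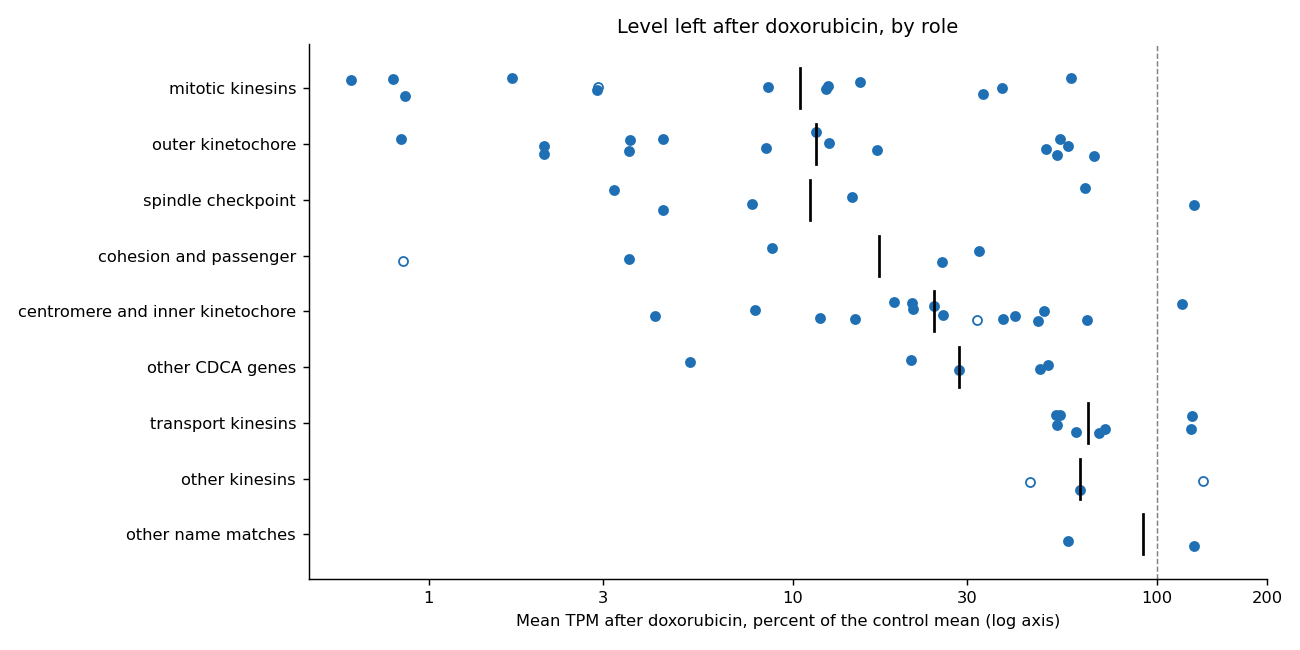
Mean TPM after doxorubicin as percent of the control mean (log axis) for each member by role, with filled points for tested genes, open points for genes below the filter and a black line at the median of tested genes. KIF1A, at 0 in every control library, is left out. Mitotic kinesins reach below 1% of control, while no tested transport kinesin is below 52.7%.

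The mitotic kinesins fell together. All 12 tested were called lower, 10 of them by over 2-fold, with a median log2 fold change of -2.15 (range -4.19 to -0.75). The shares among all genes tested were 48.5% called lower and 6.28% lower by over 2-fold. Their summed level went from 122 ± 8.21 TPM to 23.2 ± 1.40 TPM (SD, n = 3 each), or 19.1% of control. In all 13 the 2 groups of libraries did not overlap, with doxorubicin lower, as in 48.4% of all genes tested.

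KIF20A (chr5:138178719-138187715, plus strand), a motor of the central spindle in cytokinesis, stood at 19.6, 22.9 and 19.05 TPM in control libraries and at 0.22, 0.19 and 0.12 TPM after doxorubicin. It kept 0.861% of its control mean (log2 fold change -4.19, SE 0.12, adjusted p = 5.1e-09). KIF23, the motor subunit of centralspindlin, was at 19.6, 18.9 and 17.6 TPM and then at 1.74, 1.87 and 4.95 TPM. Doxorubicin library 3 was higher than the other two, yet far below every control (log2 fold change -2.45, SE 0.26, adjusted p = 6.5e-05). KIF22, which binds chromosome arms, had the highest control level of the group and moved least. Its values were 26.1, 26.98 and 27.5 TPM before and 16.3, 15.6 and 14.9 TPM after, so 58.1% remained (log2 fold change -0.75, SE 0.09, adjusted p = 5.7e-05).

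The other mitotic kinesins filled the range between these. The chromokinesin KIF4A kept 0.613%, KIF18B, which acts on the ends of astral microtubules, 0.796%, the microtubule depolymerase KIF2C 1.69% and the minus-end motor KIFC1 2.90%. KIF4A shares nearly all of its coding sequence with the intronless copy KIF4B, which is not in the table, so its level may include reads of that copy. KIF11, which pushes spindle poles apart, kept 8.55%, while CENPE and KIF20B kept 12.4% and 12.3%. Without doxorubicin library 1 the value of CENPE was 7.07%. KIF15 and KIF18A kept more, at 33.3% and 37.6%. KIF18A fell by 0.99 on the log2(TPM + 1) scale and so just missed the 2-fold count, while KIF15, at -1.05, just passed it. KIF14 was below the filter, at 0.93, 0.84 and 0.63 TPM in controls and 0.04, 0.02 and 0.01 TPM after doxorubicin.

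Transport kinesins moved far less. Of the 8 tested, 6 were called lower, none by over 2-fold, and 2 were not called. Among all genes tested, 48.5% were called lower, 22.7% higher and 6.28% lower by over 2-fold. The median log2 fold change of the 8 was -0.51 (range -0.89 to 0.27). The summed level of transport kinesins was 92.7 ± 8.43 TPM in controls and 63.9 ± 9.35 TPM after doxorubicin (SD, n = 3 each), or 69.0% of control. These calls depend on the scaling. Under quantile normalization the median was -0.22, and KIF13A no longer reached a 1.2-fold fall. KIF17 and KIFC2 were called higher under quantile normalization and under median centring. Without rescaling, the difference between the median log2 fold changes of mitotic and transport kinesins was -1.63. Between libraries, the median log2(TPM + 1) of mitotic minus transport kinesins had an SD of 0.27, with the control and doxorubicin SDs combined. The difference is a description, since the genes of a group are not replicates. Of 17 transport kinesins looked for, 8 are not in the table, against 2 of 15 mitotic kinesins. Both medians thus cover only genes that are listed. The smallest fall among tested mitotic kinesins, KIF22 at -0.75, was smaller in size than those of KIF5B at -0.89 and KIF3C at -0.81, so the ranges of the 2 groups overlapped.

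KIF5B (chr10:32009010-32056431, minus strand), the widely expressed kinesin-1 motor, was the highest transport kinesin. It was at 32.9, 37.9 and 29.7 TPM in controls and at 17.7, 14.7 and 20.6 TPM after doxorubicin, 52.7% of control (log2 fold change -0.89, SE 0.13, adjusted p = 0.00023). KIF13A, an endosome motor, went from 20.2, 20.05 and 17.9 TPM to 13.8, 12.0 and 15.9 TPM. It was called lower (log2 fold change -0.46, SE 0.12, adjusted p = 0.0054), but not under median centring (adjusted p = 0.056). Under quantile normalization its log2 fold change was -0.25 (limma adjusted p = 0.027), short of the 1.2-fold needed for a call. The kinesin-2 motors KIF3A and KIF3C kept 59.8% and 53.1% of control, and the kinesin-3 motors KIF1B and KIF13B kept 69.2% and 54.1%.

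KIFC2 and KIF17 lay above control without a call. KIFC2, a motor with its motor domain at the C-terminal end, was at 9.52, 9.79 and 10.2 TPM and then at 10.4, 12.0 and 14.2 TPM (log2 fold change 0.27, SE 0.12, adjusted p = 0.065). KIF17, a kinesin-2 motor, was at 3.80, 2.77 and 3.75 TPM and then at 3.67, 4.27 and 4.91 TPM, so that the groups overlapped (log2 fold change 0.25, SE 0.14, adjusted p = 0.13). Both were called higher under median centring (adjusted p = 0.0021 and 0.0092) and under quantile normalization (adjusted p = 0.0025 and 0.0038), and KIFC2 also without doxorubicin library 1 (adjusted p = 0.033). KIF1A, a motor of synaptic vesicle precursors, is listed at 0 in every control library and at 0.26, 0.04 and 0.10 TPM after doxorubicin.

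**Figure D3:**
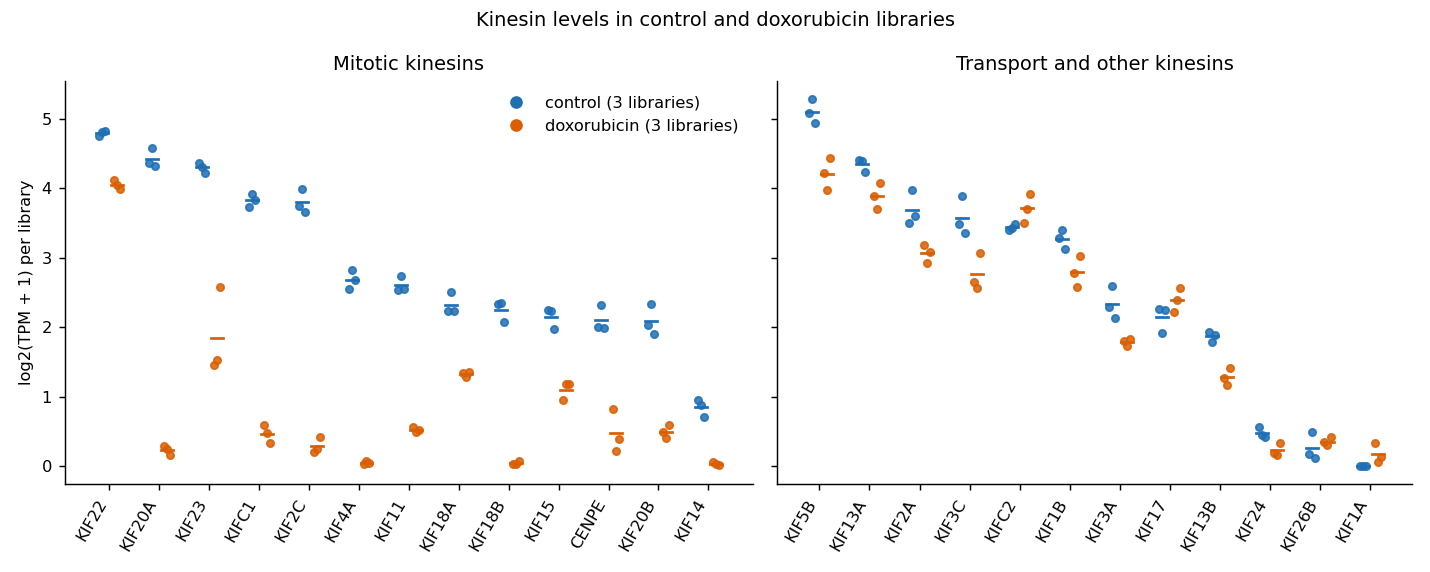
log2(TPM + 1) of each kinesin in 3 control (blue) and 3 doxorubicin (orange) libraries, 1 point per library with a bar at the mean, ordered by control level. All 13 mitotic kinesins separate the 2 groups, most of them down to near 0, while 8 of the 9 transport kinesins stay above 1 TPM, 6 of them called lower. By comparison, 48.4% of all genes tested separate the groups with doxorubicin lower, and 48.5% were called lower.

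Of the 3 other kinesins only KIF2A, a depolymerase at spindle poles and in neurons, passed the filter. It was at 10.3, 14.7 and 11.1 TPM in controls and 8.10, 6.61 and 7.45 TPM after doxorubicin, and was called lower (log2 fold change -0.63, SE 0.14, adjusted p = 0.0028). KIF2A kept 61.3% of control, while its relative KIF2C, placed among the mitotic kinesins, kept 1.69%. KIF2A was placed outside that group although it also works at spindle poles. Its fall was smaller than that of KIF22 at -0.75, so counted there it would be the least changed mitotic kinesin tested. KIF24, a depolymerase at centrioles, stayed between 0.12 and 0.47 TPM and KIF26B, a kinesin without known motor activity, between 0.08 and 0.41 TPM.

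In centromere chromatin and the inner kinetochore, 14 of 15 tested genes were called lower, 10 of them by over 2-fold, with a median log2 fold change of -1.45. Of all genes tested, 48.5% were called lower and 6.28% by over 2-fold. CENPM fell most, from 15.1, 16.1 and 18.5 TPM to 0.92, 0.54 and 0.62 TPM (log2 fold change -3.38, SE 0.13, adjusted p = 2.4e-08). CENPW, a histone-fold protein that pairs with CENPT, went from 24.8, 26.7 and 25.3 TPM to 4.07, 3.99 and 3.31 TPM (log2 fold change -2.48, SE 0.11, adjusted p = 5.7e-08). Its partner CENPT, the most abundant gene of this group, lay above control. CENPT was at 66.7, 62.3 and 64.2 TPM in controls and at 71.6, 74.8 and 79.7 TPM after doxorubicin, with no overlap (log2 fold change 0.22, SE 0.07, adjusted p = 0.013), which is below the 1.2-fold needed for a call.

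CENPN, which reads the CENPA nucleosome, went from 20.4, 21.8 and 14.8 TPM to 4.70, 5.22 and 4.74 TPM (log2 fold change -1.75, SE 0.14, adjusted p = 5.3e-06). The histone CENPA itself kept 19.0% of control, and MIS18A, which helps prepare centromeres to receive it, kept 47.1%. CENPC, the scaffold of the inner kinetochore, kept 64.3%. In the rest of this group CENPU and CENPH kept 7.87% and 11.8%, CENPK, CENPI, CENPO, CENPQ and CENPL between 21.4% and 48.8%, and CENPP, below the filter, 32.0%. CENPK, the lowest of those 5, was at 11.4% without doxorubicin library 2. The group kept 54.0% of its summed level, much of it in CENPT.

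All 15 outer kinetochore genes were called lower, 10 of them by over 2-fold, against 48.5% and 6.28% of all genes tested. Their median log2 fold change was -2.31, with 31.4% of the summed level left. The 4 genes of the NDC80 complex, the main microtubule grip of the kinetochore, summed to 31.9 ± 2.58 TPM in controls and 1.61 ± 0.80 TPM after doxorubicin (SD, n = 3 each), or 5.04%. NUF2 was at 8.55, 10.3 and 8.54 TPM and then at 0.06, 0.05 and 0.12 TPM, and NDC80 (chr18:2571511-2616635, plus strand) kept 3.56%. SPC25 was at 5.36, 5.63 and 6.35 TPM and then at 0.14, 0.00 and 0.22 TPM, listed at 0 in doxorubicin library 2. SPC24 kept the most of the 4, 11.6%. SKA1 and SKA3 of the SKA complex, which helps the NDC80 complex follow shortening microtubules, together kept 2.55%.

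SKA2, the third subunit of that complex, behaved unlike the other two. It was at 63.2, 58.3 and 61.6 TPM in controls and 33.0, 35.1 and 35.9 TPM after doxorubicin, 56.8% of control (log2 fold change -0.80, SE 0.07, adjusted p = 1.1e-05). CENPF, a large late cell cycle protein of the kinetochore corona, had the largest fitted fall of the group on the log2(TPM + 1) scale, from 20.8, 24.8 and 17.4 TPM to 0.68, 1.74 and 0.35 TPM (log2 fold change -3.57, SE 0.24, adjusted p = 2.2e-06). ZWINT, which binds the scaffold KNL1, went from 26.0, 28.3 and 22.2 TPM to 4.63, 4.06 and 4.31 TPM (log2 fold change -2.31, SE 0.12, adjusted p = 1.5e-07).

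The partners SPAG5 (astrin) and KNSTRN (kinastrin), which stabilise attachments together, parted in size. SPAG5 kept 8.4% of control. KNSTRN was at 17.3, 22.1 and 17.5 TPM and then at 10.3, 9.99 and 9.98 TPM, 53.2% of control (log2 fold change -0.84, SE 0.12, adjusted p = 0.00016). KNL1 kept 12.6% (5.91% without doxorubicin library 1), DSN1 of the MIS12 complex 54.0% and ZWILCH 49.5%. KNTC1, which with ZWILCH recruits dynein to kinetochores, was the least changed, at 4.89, 7.06 and 5.92 TPM and then at 2.50, 4.07 and 5.38 TPM. The groups overlapped, and the call (log2 fold change -0.51, SE 0.21, adjusted p = 0.045) was lost without control library 2 or 3, without doxorubicin library 1 or 2, with no filter on low values, without trend and robust estimation and under both rescalings (adjusted p 0.054 to 0.54).

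**Figure D4:**
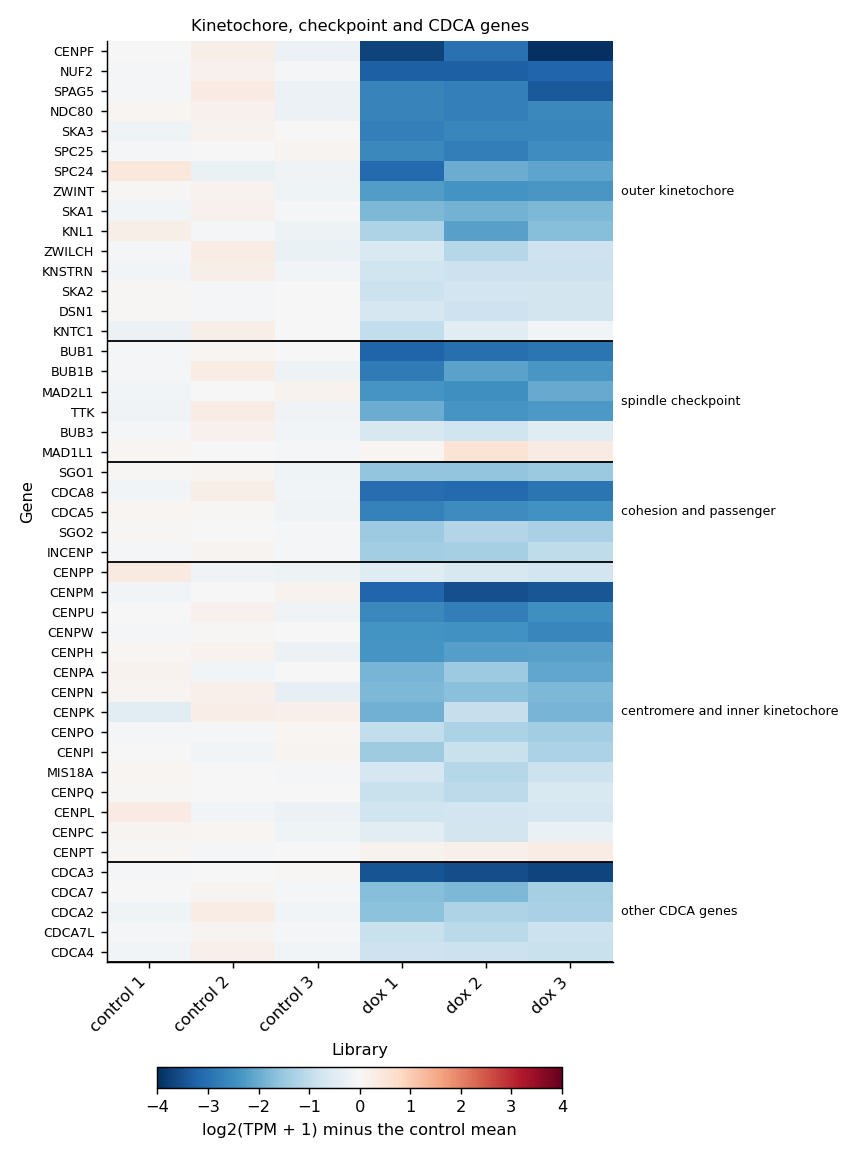
log2(TPM + 1) minus the control mean for the kinetochore, checkpoint, cohesion, passenger and other CDCA genes, 1 not shown (rows, by role) in the 6 libraries (columns), with blue below and red above control. The 3 doxorubicin columns (dox) are blue for most genes, and CENPT and MAD1L1 are the rows above control.

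Of the 6 spindle checkpoint genes, 5 were called lower and 1 higher, against 48.5% lower and 22.7% higher among all genes tested. BUB1, a kinase that docks the checkpoint at kinetochores, went from 9.30, 10.3 and 9.85 TPM to 0.18, 0.34 and 0.43 TPM (log2 fold change -3.04, SE 0.13, adjusted p = 3.1e-08). MAD2L1, which forms the inhibitor of anaphase, was at 11.2, 12.0 and 13.6 TPM and then at 1.60, 1.43 and 2.30 TPM (log2 fold change -2.26, SE 0.14, adjusted p = 7.0e-07). The kinase TTK, which starts the signal, kept 4.404% (2.17% without doxorubicin library 1) and BUB1B, a part of the same inhibitor, 7.73%. BUB3, which BUB1 and BUB1B both bind, stayed the most abundant checkpoint gene. It was at 91.4, 107 and 89.7 TPM and then at 61.1, 54.4 and 67.7 TPM, 63.5% of control (log2 fold change -0.65, SE 0.10, adjusted p = 0.00025).

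MAD1L1, which carries MAD2L1 to the kinetochore, was called higher, although its groups overlapped. It was at 21.7, 20.2 and 19.4 TPM in controls and at 21.5, 30.2 and 25.6 TPM after doxorubicin (log2 fold change 0.31, SE 0.12, adjusted p = 0.036). The call was lost without control library 2 or 3, without doxorubicin library 2 or 3 (adjusted p 0.062 to 0.13) and without trend and robust estimation (adjusted p = 0.055).

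The 4 tested genes of cohesion and the chromosomal passenger complex were all called lower by over 2-fold, against 6.28% of all genes tested. The summed level of the 5 listed was 13.04% of control. CDCA8 (borealin), a subunit of the passenger complex, went from 9.24, 11.8 and 9.07 TPM to 0.34, 0.28 and 0.45 TPM (log2 fold change -3.02, SE 0.14, adjusted p = 6.2e-08). INCENP, the scaffold of the same complex, fell less, from 5.45, 6.27 and 5.35 TPM to 1.56, 1.65 and 2.32 TPM (log2 fold change -1.24, SE 0.14, adjusted p = 4.5e-05). CDCA5 (sororin), which protects cohesin, was at 10.5, 10.2 and 8.75 TPM and then at 0.66, 0.90 and 1.01 TPM (log2 fold change -2.54, SE 0.13, adjusted p = 1.5e-07). Of the shugoshins, which guard centromeric cohesion, SGO2 kept 25.6%. SGO1, below the filter, was at 2.08, 2.17 and 1.65 TPM in controls and was listed at 0, 0 and 0.05 TPM after doxorubicin.

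The other CDCA genes share a name (cell division cycle associated) and not a function. All 5 were called lower, 3 of them by over 2-fold, against 48.5% and 6.28% of all genes tested. Of their summed level, 24.0% was left. CDCA3, a factor of mitotic entry, went from 26.5, 27.6 and 28.3 TPM to 1.61, 1.44 and 1.25 TPM (log2 fold change -3.55, SE 0.11, adjusted p = 7.1e-09). CDCA7L was at 10.0, 11.3 and 9.80 TPM and then at 5.16, 4.35 and 5.28 TPM, and CDCA4 at 9.14, 11.4 and 9.13 TPM and then at 5.11, 4.92 and 4.78 TPM. CDCA4 moved least of the 5 (log2 fold change -0.87, SE 0.12, adjusted p = 0.00018). CDCA2, which brings a phosphatase to chromatin, and CDCA7 kept 28.5% and 21.0%.

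Among genes that match by name only, CENPJ, a centriole protein, was at 4.11, 5.00 and 2.51 TPM in controls and 2.80, 1.65 and 2.16 TPM after doxorubicin, with overlap. Its call (log2 fold change -0.59, SE 0.21, adjusted p = 0.024) was lost without control library 1 or 2 or doxorubicin library 2 or 3 (adjusted p 0.056 to 0.093) and under both rescalings (adjusted p 0.14 to 0.32). PMF1-BGLAP is a read-through of the kinetochore gene PMF1 into its neighbour, so its reads cannot be told from those of PMF1. It was at 5.71, 5.56 and 6.03 TPM and then at 7.54, 6.80 and 7.45 TPM, without overlap (log2 fold change 0.29, SE 0.11, adjusted p = 0.035). This call was lost when any library but doxorubicin library 2 was left out (adjusted p 0.057 to 0.11).

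Genes that work beside these motors and are not members were looked up as a pair of lists, to be read against the 48.5% called lower and 22.7% called higher among all genes tested. Of 25 tested partners at the spindle and kinetochore, all 25 were called lower, 21 of them by over 2-fold, with a median log2 fold change of -2.40. CDC20, the anaphase activator that the checkpoint restrains, went from 42.2, 52.6 and 43.7 TPM to 0.99, 0.82 and 0.51 TPM (log2 fold change -4.74, SE 0.14, adjusted p = 5.1e-09). PRC1, the bundling protein that brings KIF4A to the central spindle, was at 29.1, 33.3 and 32.6 TPM and then at 0.68, 0.85 and 0.79 TPM (log2 fold change -4.20, SE 0.12, adjusted p = 4.7e-09). In the passenger complex, the partners AURKB and BIRC5 kept 4.65% and 1.97% of control, beside 3.55% for CDCA8 and 32.4% for INCENP. Without doxorubicin library 1, where AURKB was at 2.53 TPM against 0.50 and 0.38 TPM in the other two, its value was 1.80%. RACGAP1, the partner of KIF23, kept 17.3%, and HJURP, the chaperone that delivers CENPA, 6.09%.

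Of 10 tested partners in transport, such as dynein, dynactin and cargo adaptors, 3 were called lower, 1 higher and 6 neither, and the median of their log2 fold changes was 0.01. Rescaling turned this balance, to 2 lower and 5 higher under median centring and 2 lower and 3 higher under quantile normalization. TRAK2, an adaptor that links kinesin-1 to mitochondria, went from 13.2, 14.1 and 12.5 TPM to 6.96, 6.23 and 8.29 TPM (log2 fold change -0.81, SE 0.12, adjusted p = 0.0003). DYNC1LI2, a dynein light intermediate chain, was at 37.6, 41.4 and 35.4 TPM and then at 22.6, 18.6 and 27.3 TPM (log2 fold change -0.73, SE 0.13, adjusted p = 0.00072). ACTR1B of dynactin was called higher, at 130% of control. The dynein heavy chain DYNC1H1 kept 90.7% and was not called. Of 35 transport partner genes looked for, 25 are not in the table, and of the 32 spindle partners 6 are not.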

How the data were processed

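The deposited table gives 1 value per gene for each of 3 control and 3 doxorubicin libraries. Its unit is not named. The values were taken as TPM (transcripts scaled for length and library) made by the authors, from the tools in the submitters' processing notes (CASAVA, HISAT2, StringTie, RSEM, DESeq2 and edgeR, no versions) and from the library sums. FPKM would differ by 1 factor per library. Median centring and quantile normalization came after the pseudocount and the filter, so they cover this only for values well above 1. The notes name GRCm38, a mouse build, for these human samples. Their aligned build was not settled here. The table was taken to hold only genes past the authors' thresholds, and its columns of group means, fold changes and p-values were not used. TPM keeps no depth, so depth is unknown.

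After a log2(TPM + 1) transform, the 5721 of 6499 genes that averaged 1 TPM or more were fitted in R 4.3.3 with limma 3.58.1 (trended, robust eBayes), with Benjamini-Hochberg adjustment over all genes tested. A call needed an adjusted p under 0.05 and a fold over 1.2. The fit was tested on simulated data. Members were matched by gene name, sorted into roles from textbook knowledge, and both members and lists were chosen with earlier results of these data known. Genes given per library were, in each role, the 3 highest, those with the largest and smallest change and those called higher, and other members named were chosen after their values were seen. A single member enters the counts and is not reported here by name. Of each partner list, the 2 with the largest change were taken. Gene positions are from GENCODE release 29 (GRCh38) and promoters from RefSeq (GRCh38.p14). A planned search of kinesin proteins for their nucleotide-binding loop was not run, since no protein table was used here. Alternatives were another pseudocount, filter, scaling, variance model and fold minimum, a replicate block and each library left out.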

Additional observations from a re-analysis of the deposited data

How the results depend on the processing

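Each gene given with a fitted value and a standard error kept its direction under every alternative run. Of the 63 members called lower, 57 to 63 kept that call under each alternative pseudocount, scaling, block or variance model, with no filter and with any library left out (leave-one-out range of lower calls 61 to 62, of falls over 2-fold 41 to 43). A mean of at least 5 TPM left fewer genes to test, with 31 called lower and 18 by over 2-fold, and a minimum of 2-fold left 41. Members called higher numbered 4 under quantile normalization, 5 under median centring, 1 without trend and robust estimation, 0 at 2-fold and 0 to 2 with a library left out. The mitotic kinesin median was -3.09 with a pseudocount of 0.1, -3.36 at a mean of 5 TPM, -1.88 under quantile normalization and -1.89 under centring, and the transport median was -0.22 under quantile normalization. The mitotic minus transport difference was -2.47 with a pseudocount of 0.1 and -2.89 at a mean of 5 TPM. Transport partners called higher numbered 3 under quantile normalization, 5 under centring (2 lower under each), 2 with no minimum fold, 0 at 2-fold and 1 to 2 with a library left out, and those called lower numbered 0 at 2-fold. The share of mitotic and centromere members with a CHR was 29.4% in the 250 bases before the start alone, since many matches lie after it or across it. The causes of the other changes were not tested. Control and doxorubicin libraries share replicate numbers. Those with the same number did not deviate together (r = -0.06, -0.19 and -0.23 over all genes tested). Between unlike numbers r was up to 0.19 (control 2 with doxorubicin 3, and control 3 with doxorubicin 2). These values show no shared effect of the number but cannot show that the libraries were unpaired. With a replicate block, 0 members were called higher (MAD1L1 adjusted p = 0.051 and PMF1-BGLAP adjusted p = 0.098, limma) and all 63 lower calls were kept. The depth is unknown, so values near 0 TPM cannot be given a floor.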

Other observations

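The rule by name matches 106 coding gene symbols in RefSeq, of which 73 are in the table and 33 are not, among them the kinetochore genes MIS12, NSL1, PMF1 and ZW10, the centromere genes CENPB, CENPS and CENPX, and the transport kinesins KIF3B, KIF1C, KIF5A, KIF5C and KIFC3. These were not analysed here, so no statement on a whole complex covers them.

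Longer genes fell more in the table as a whole and did not among the members. Across the 5700 genes tested that have a position, Spearman's rho of gene span with log2 fold change was -0.44. Across the 68 members tested it was 0.28, and across the 21 kinesins tested 0.29. These are correlations across genes of the same 6 libraries, which are not independent replicates, and they were not tested.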
